A study of Homo sapiens with 15 samples.

Results

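Extracellular proteases cut matrix and cell-surface proteins, and their activity is part of how carcinoma cells invade. The set described here was MMP1, MMP3, MMP7, MMP10, ADAMTS1, ADAM9, ADAM19, PLAU, PLAUR and PLAT. All probes annotated to these 10 genes in the platform's probe-to-gene table were taken, which gave 10 of the 20046 genes that the table names and 14 of the 47322 probes on the array. RNA of VCaP cells, an established prostate carcinoma line that carries the TMPRSS2-ERG fusion and so makes the ETS transcription factor ERG, was measured on 15 Illumina expression arrays, 3 for each of 5 groups. Cells had received ERG siRNA 1 or ERG siRNA 2 for 72 h, a non-targeting siRNA, WP1130 for 24 h, or DMSO. WP1130 is a small-molecule inhibitor of deubiquitinating enzymes, USP9X among them. The sources used here do not give its dose, nor how long the non-targeting and DMSO groups were kept. All groups were the same line grown in DMEM with 10% serum, and all carry its fusion. The labels do not say whether the 3 arrays of a group came from separate cultures, so a p-value below speaks only of array-to-array spread, part or all of which may be technical.

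The matrix metalloproteinases (MMPs) are secreted zinc enzymes made as inactive precursors. MMP1 is a collagenase, MMP3 and MMP10 are stromelysins that cut many matrix proteins and can activate other MMP precursors, and MMP7, matrilysin, is a small epithelial member. ADAM9 and ADAM19 are membrane-anchored relatives that shed surface proteins, and ADAMTS1 is a secreted relative that cuts the matrix proteoglycans aggrecan and versican. PLAU (urokinase) and PLAT (tissue-type activator) turn plasminogen into plasmin, and PLAUR is the surface receptor that holds urokinase at the cell edge. MMP1, MMP3 and PLAU are textbook targets of AP-1 and ETS factors in other cell types.

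Levels are given as background-corrected, quantile-normalised log2 intensities, and raw intensities are the linear values of the deposited non-normalized table. A probe was called detected on an array where its deposited detection p was under 0.05, and it was tested if detected on at least 3 of the 15 arrays. Of the 14 probes, 9 probes of 7 genes met this. MMP10, ADAMTS1, ADAM9 and 1 ADAM19 probe were detected on all 15 arrays. MMP1 and all 3 PLAUR probes were detected on the 3 WP1130 arrays and on no other array. They therefore entered the test only through the group in which they were high. MMP3 was detected on the 3 WP1130 arrays and on 1 array of each ERG siRNA. The 5 probes not tested were both MMP7 probes, PLAU, PLAT and the second ADAM19 probe. Levels of different probes cannot be set against each other on this platform, so each probe is compared only with itself.

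**Figure D1:**
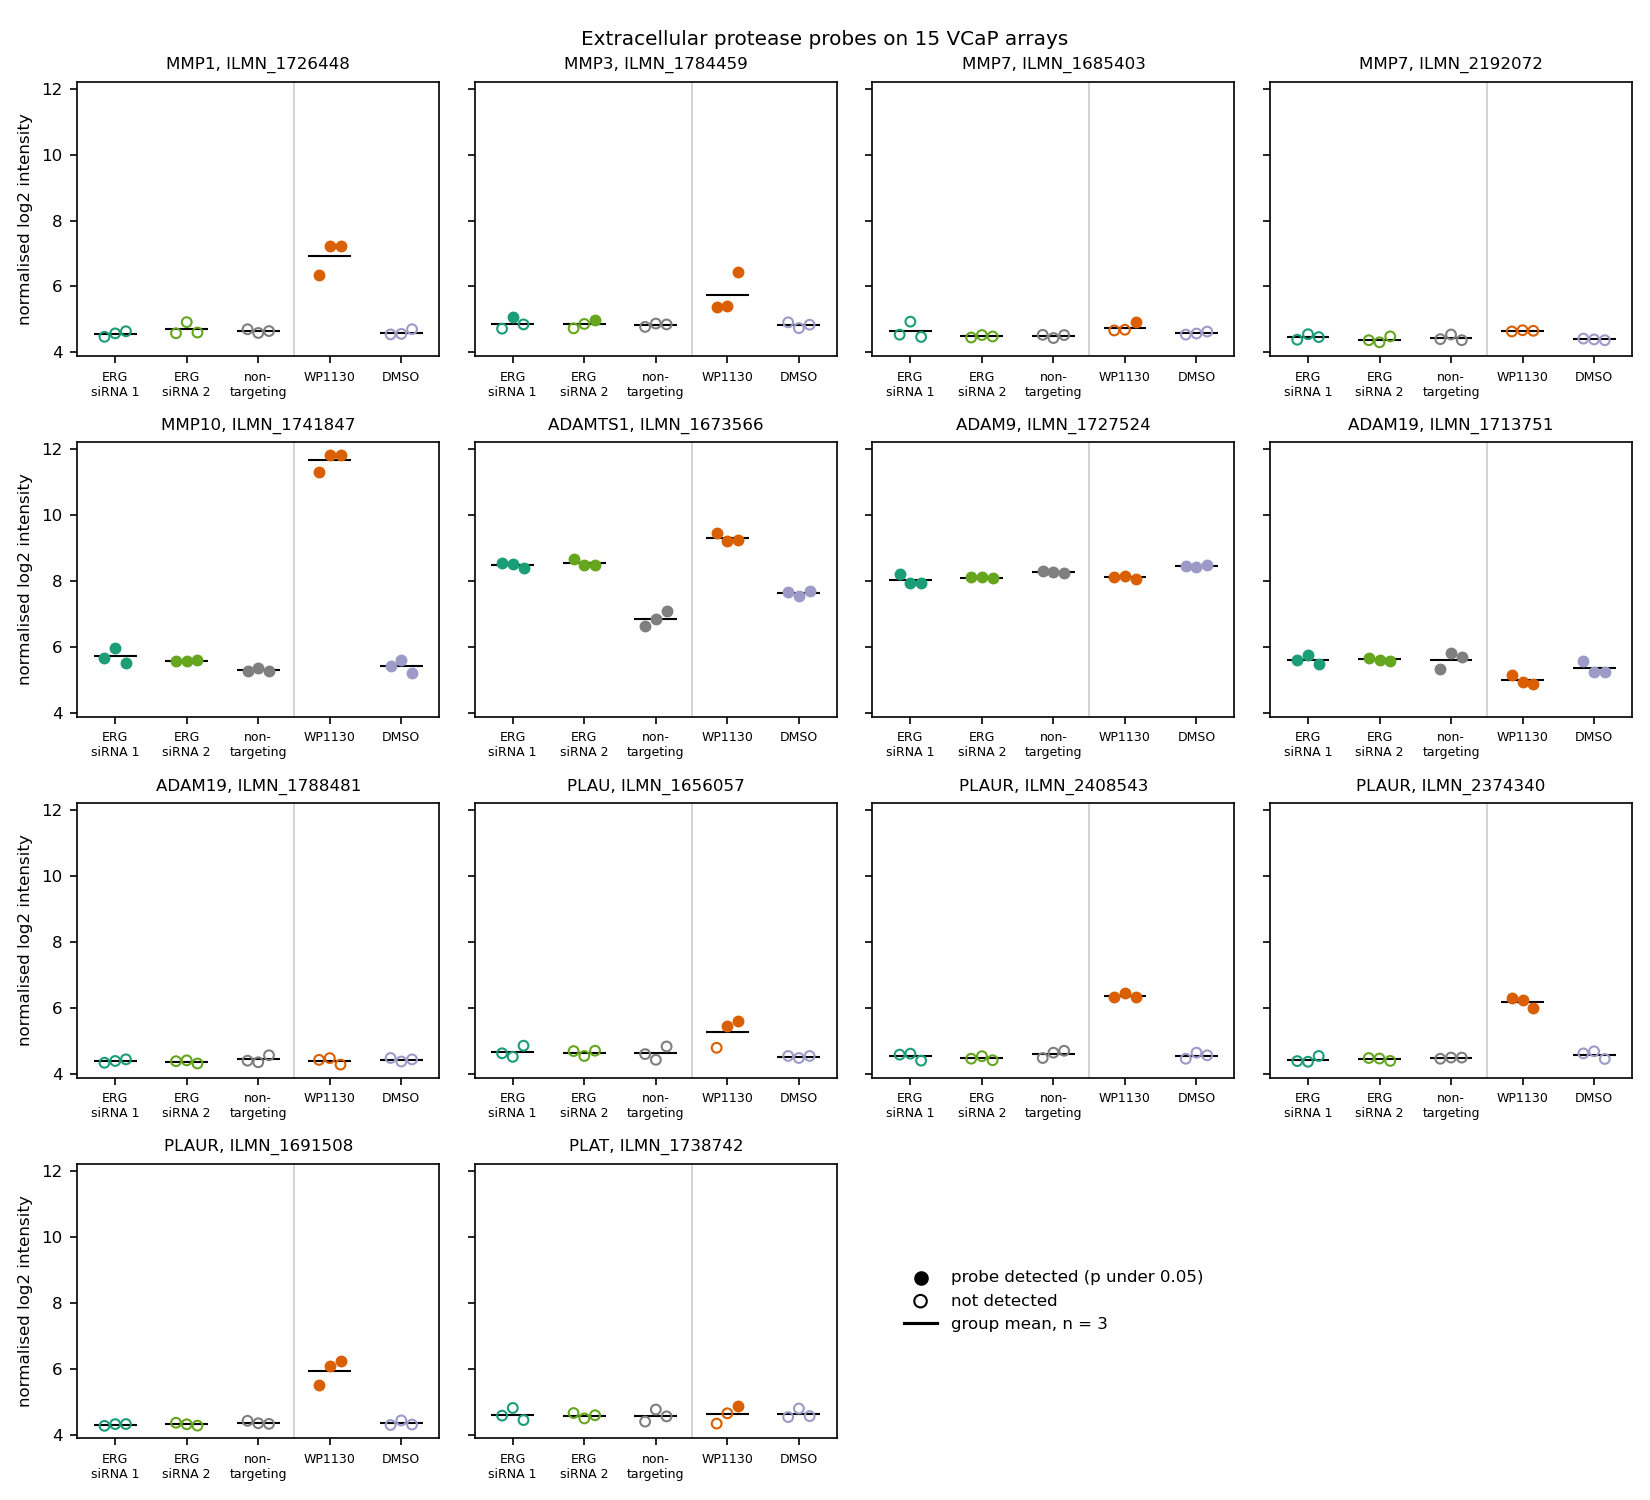
Normalised log2 intensity (vertical axis) of the 14 protease probes on each array, 1 panel a probe and 3 arrays a group; filled points mark detected probes and bars the group means. MMP10 reaches 11.3 to 11.8 on the WP1130 arrays, MMP1 and the 3 PLAUR probes are filled on WP1130 arrays alone, and ADAMTS1 is higher with both ERG siRNAs and with WP1130.

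The arrays of a group correlated at 0.993 to 0.996 over all probes, and 18460 to 21220 probes were detected per array. Mean raw intensity was 424 ± 11.9 (ERG siRNA 1) and 413 ± 27.2 (ERG siRNA 2), against 427 ± 28.3 for the non-targeting siRNA, and 311 ± 5.21 for WP1130 against 417 ± 19.4 for DMSO (SD, n = 3 each). The WP1130 arrays were thus dimmer as a whole, and their background medians were lower, at 98.2 to 101 with WP1130 against 105 to 107 with DMSO. In the ERG siRNA groups the targeted gene was lower: 1 of the 3 ERG probes was bright enough to test, and it averaged 5.30 ± 0.41 with ERG siRNA 1 and 5.22 ± 0.39 with ERG siRNA 2, against 5.84 to 6.13 on the non-targeting arrays (log2, SD, n = 3 each). The fall of the mean of both siRNAs was -0.74 ± 0.16 on the log2 scale (SE, adjusted p = 0.0057). ERG also differed between WP1130 (5.76 ± 0.09) and DMSO (6.30 ± 0.05), by -0.54 (adjusted p = 0.024). A second ERG probe, too dim for the filter, was detected on 2 WP1130 arrays and on no DMSO array, with a difference of 0.40. With the mean of the ERG siRNAs that second probe was at -0.26. The third ERG probe, also too dim, was at -0.21 with ERG siRNA 1 and at 0.03 with ERG siRNA 2. Where the tested ERG probe lies on the TMPRSS2-ERG transcript is not known here. As a check of the cell type, 8 of the 9 luminal prostate markers on the array were detected on every array, KLK3's probe being the exception. No probe of the basal keratins KRT5, KRT14 and KRT15 was detected on any array.

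With WP1130, 7 of the 9 tested protease probes, of 5 genes, were higher than with DMSO, and 2 were lower. Nothing is read from the count of 7, since the MMP1 probe and the 3 PLAUR probes passed the filter through the WP1130 arrays alone. MMP10 rose 75.4-fold and ADAMTS1 3.17-fold. MMP1, PLAUR and MMP3 were detected on all 3 WP1130 arrays and on no DMSO array, so their rises are given as lower bounds on the normalised scale. ADAM9 and ADAM19 fell, slightly so under quantile normalization. This stands against a background in which 51.3% of all tested probes passed the threshold, an adjusted p under 0.05 by limma over all 23281 probes, with 19% higher and 32.3% lower. Calls in this comparison are therefore common. In RNA of whole cultures, a change in the number of cells that express a gene cannot be told apart from a change in the RNA per cell. Over all 14 protease probes with no filter, the median change was 0.83 on the log2 scale, against -0.02 over all 47322 probes. Of the 14, 9 were called higher and 2 lower, against 10.5% and 15.8% of all probes. The members were chosen with earlier results of these data known. These shares, and the overlap counts that follow, are therefore no test of the set. In 10 of the 14 all WP1130 arrays lay above all DMSO arrays and in 2 below, while 37% of all probes had groups that did not overlap in either direction. That count is of normalised values. In raw intensities 6 of the 14 lay higher with WP1130 (MMP1, MMP10, ADAMTS1 and the PLAUR probes), 3 lower and 5 overlapped, on arrays where 3.39% of all probes lay higher and 67.3% lower.

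**Figure D2:**
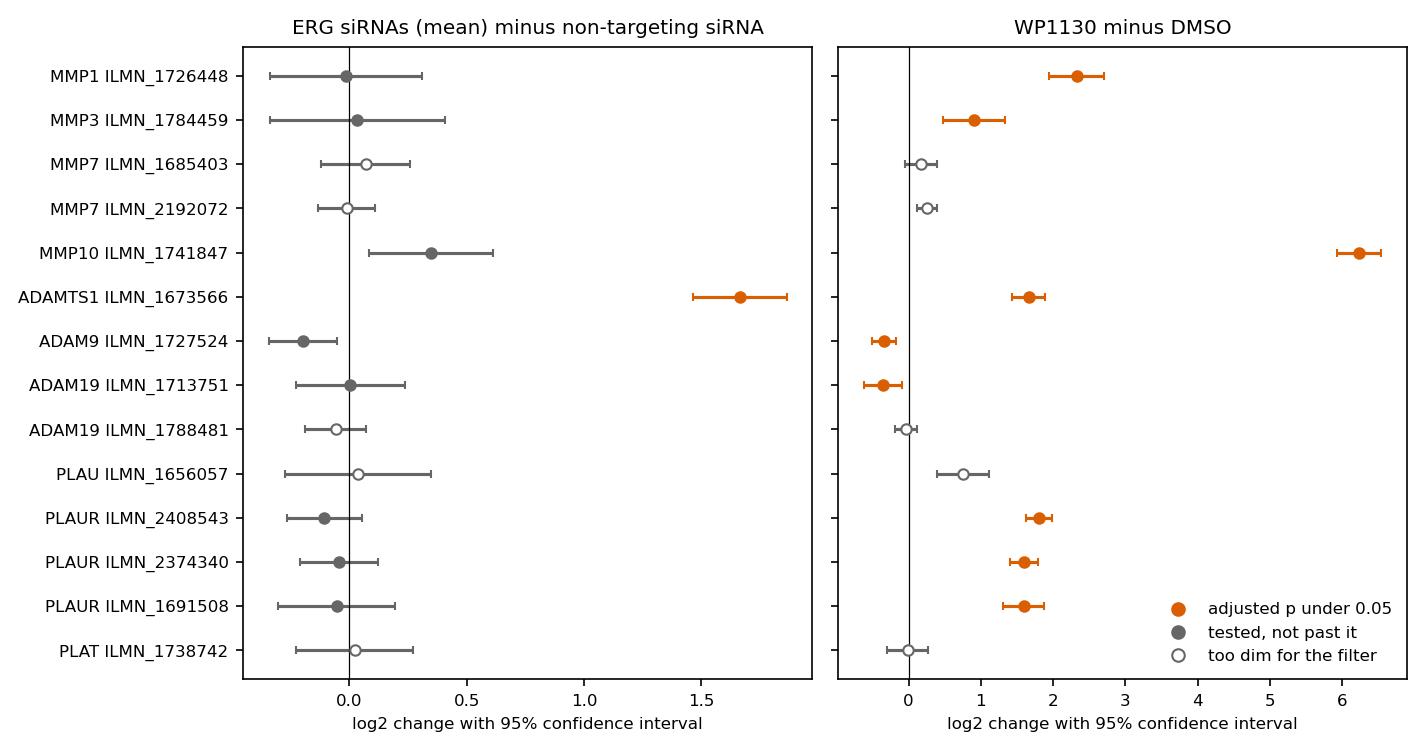
Log2 change with its 95% confidence interval (horizontal axis, different ranges in the panels) for each protease probe, ERG siRNAs on the left and WP1130 on the right; hollow points are probes too dim to be tested. In the left panel ADAMTS1 alone is past the threshold, at 1.66, and in the right panel MMP10 stands at 6.24 while ADAM9 and ADAM19 lie below 0.

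MMP10 (stromelysin-2) lies on chromosome 11 (chr11:102770502-102780628, GRCh38.p14, minus strand). Its raw intensities were 1805, 2577 and 2737 on the WP1130 arrays and 136, 149 and 134 on the DMSO arrays. On the log2 scale it averaged 11.66 ± 0.30 with WP1130 and 5.43 ± 0.20 with DMSO (SD, n = 3 each), a difference of 6.24 ± 0.14 (SE) or 75.4-fold, with an adjusted p of 1.30e-14. The ratio of the raw means was 17.0, since the raw values still hold the background. By size of change MMP10 ranked 6 among the 23281 tested probes. No WP1130 array came near any other array of the study: the other 12 arrays spanned 5.22 to 5.98.

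MMP1 (interstitial collagenase) is encoded by the next MMP gene at this locus (chr11:102789919-102798160). It had raw intensities of 147, 181 and 189 with WP1130, against 112, 115 and 119 with DMSO. In log2 terms it averaged 6.93 ± 0.51 with WP1130 and 4.60 ± 0.09 with DMSO (SD, n = 3 each). Because it was undetected with DMSO, its change is a bound: MMP1 was at least 4.01-fold higher with WP1130 (fitted log2 difference 2.33, adjusted p = 3.12e-08). All such bounds set the mean of the WP1130 arrays against the lowest detected level of each DMSO array, or the probe's own level where that was higher. The bounds apply to the background-corrected, quantile-normalised values and not to other processing. With no background correction the fitted MMP1 difference was 0.92, and the ratio of the raw means was 1.49.

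MMP3 (stromelysin-1, chr11:102835801-102843609) had log2 levels of 5.39, 5.40 and 6.44 with WP1130 and 4.91, 4.74 and 4.84 with DMSO. It was at least 1.76-fold higher (fitted difference 0.91 ± 0.20, adjusted p = 0.0014), and a single WP1130 array stood well above the other two. Without that array, replicate 3, the difference was 0.56 (adjusted p = 5.7e-04). The raw MMP3 intensities overlapped, at 123, 119 and 151 with WP1130 and 123, 121 and 123 with DMSO, so WP1130 replicate 1 lay within the DMSO range and replicate 2 below it, while the WP1130 arrays had lower background medians. The part of the lower background in the MMP3 rise was not tested.

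The MMP genes of this chromosome 11 locus lie in the order MMP7, MMP20, MMP27, MMP8, MMP10, MMP1, MMP3, MMP12 and MMP13 in the reference annotation. The adjacent MMP10, MMP1, MMP3 and MMP12 were each detected on all 3 WP1130 arrays. MMP12, macrophage elastase, was singled out after its values were seen: its 2 probes had fitted differences of 0.95 and 0.96, and it was at least 1.34-fold higher with WP1130. MMP27, MMP8 and MMP13 were detected on no array, and MMP20 on 1 DMSO array only. MMP7 (matrilysin, chr11:102520508-102530747), at the other end, stayed near background. Its first probe averaged 4.76 ± 0.13 with WP1130 and 4.58 ± 0.05 with DMSO and was detected on 1 WP1130 array, and its second, detected nowhere, averaged 4.66 ± 0.02 with WP1130 and 4.40 ± 0.02 with DMSO. That second MMP7 probe passed the threshold when every probe was tested (difference 0.26, adjusted p = 0.0075), but with both groups below detection it has no fold change. Over the 18966 probes detected on no array, the WP1130 difference had a median of 0.0032 and ran from -0.16 at the 5th percentile to 0.16 at the 95th, and 3.24% were called.

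RefSeq promoters, from 250 bases before to 50 bases after a gene's start (GRCh38.p14), were at hand for MMP7, MMP10, ADAM19, PLAU (2 starts) and PLAUR. They are shown for the induced MMP10, for the induced PLAUR and for MMP7, which lies at the same chromosome 11 locus but stayed near background. Capitals mark the AP-1-like word TGANTCA, with any base at N, searched on both strands. MMP10 is chr11:102780579-102780878, minus strand, PLAUR chr19:43670120-43670419, minus strand, and MMP7 chr11:102530698-102530997, minus strand, each read 5′ to 3′.
MMP10: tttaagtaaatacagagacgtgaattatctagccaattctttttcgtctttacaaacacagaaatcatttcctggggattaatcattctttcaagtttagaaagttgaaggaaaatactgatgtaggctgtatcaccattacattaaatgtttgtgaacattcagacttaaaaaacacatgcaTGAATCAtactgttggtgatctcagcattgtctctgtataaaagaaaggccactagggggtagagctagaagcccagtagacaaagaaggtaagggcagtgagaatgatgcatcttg
PLAUR: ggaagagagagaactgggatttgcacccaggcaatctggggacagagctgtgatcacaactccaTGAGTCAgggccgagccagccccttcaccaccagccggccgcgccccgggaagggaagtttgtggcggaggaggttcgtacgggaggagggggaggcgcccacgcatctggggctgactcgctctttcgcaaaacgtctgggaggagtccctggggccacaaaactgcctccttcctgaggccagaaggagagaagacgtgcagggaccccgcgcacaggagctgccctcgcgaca
MMP7: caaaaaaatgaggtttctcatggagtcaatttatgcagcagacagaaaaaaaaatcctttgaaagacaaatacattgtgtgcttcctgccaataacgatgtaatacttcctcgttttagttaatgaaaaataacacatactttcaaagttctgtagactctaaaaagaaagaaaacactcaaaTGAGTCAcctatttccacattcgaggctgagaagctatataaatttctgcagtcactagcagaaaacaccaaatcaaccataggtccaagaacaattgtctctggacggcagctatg

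The word was at base -67 from the start in MMP10 (TGAATCA), also at -67 in MMP7 (TGAGTCA), and at -186 in PLAUR (TGAGTCA), so its middle base differed in MMP10. ADAM19 and both PLAU windows held none, and 7.71% of the 35116 promoters in the table held one. Thus the word was present both in MMP10, which rose, and in MMP7, which was detected on 1 WP1130 array only. The ETS words AGGAAG and CGGAAG, found in 33.6% and 19.5% of all promoters on either strand, were absent from the MMP10 and ADAM19 windows. AGGAAG occurred on the reverse strand in MMP7 at -169 and -145 and in PLAUR at -15. The second PLAU window held AGGAAG at -221 and CGGAAG at -119, both on the gene's own strand. Such matches describe letters in these windows and say nothing of binding.

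PLAUR, the urokinase receptor (chr19:43646095-43670169, minus strand), was measured by 3 probes, which moved together. The probe ILMN_2408543 had log2 levels of 6.33, 6.44 and 6.32 with WP1130 and 4.46, 4.65 and 4.57 with DMSO, and was at least 2.71-fold higher (fitted difference 1.81 ± 0.09, adjusted p = 1.16e-10). The probe ILMN_2374340 had 6.30, 6.25 and 6.01 with WP1130 and 4.62, 4.69 and 4.45 with DMSO, at least 2.40-fold higher (1.60 ± 0.09, adjusted p = 8.18e-10). ILMN_1691508 had 5.49, 6.09 and 6.23 with WP1130 and 4.29, 4.43 and 4.31 with DMSO, at least 2.02-fold higher (1.59 ± 0.13, adjusted p = 1.06e-07). No WP1130 array overlapped a DMSO array on any of the 3 PLAUR probes, in normalised or in raw values. The raw rises were small in absolute terms: on ILMN_2408543 the raw means were 147 with WP1130 and 113 with DMSO.

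The ligand of this receptor, PLAU (urokinase, chr10:73908832-73917494), was too dim for the filter. Its log2 levels were 4.79, 5.45 and 5.61 with WP1130, 2 of the 3 detected, against 4.55, 4.48 and 4.55 with DMSO. When every probe was tested, PLAU differed by 0.76 ± 0.17 (adjusted p = 0.0030), while its raw values overlapped between the groups. With 1 WP1130 array and all DMSO arrays undetected, no lower bound of its fold change is given. PLAT, the tissue-type activator, averaged 4.62 ± 0.27 with WP1130 and 4.63 ± 0.14 with DMSO. It was detected on 1 WP1130 array, and its difference of -0.01 had a 95% interval from -0.30 to 0.28.

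ADAMTS1 (chr21:26835755-26845409) was bright on every array and is the one protease of the set that was past the threshold, and higher, in both kinds of treatment. Its log2 levels were 9.47, 9.22 and 9.26 with WP1130 and 7.69, 7.56 and 7.71 with DMSO. WP1130 minus DMSO was 1.66 ± 0.11 (SE), or 3.17-fold, with an adjusted p of 4.92e-09. The raw means were 494 ± 43.9 with WP1130 and 315 ± 16.3 with DMSO, a ratio of 1.57 on arrays that were dimmer as a whole.

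Both membrane ADAM genes were lower with WP1130, slightly so under quantile normalization. ADAM9 had log2 levels of 8.13, 8.17 and 8.07 with WP1130 and 8.45, 8.44 and 8.50 with DMSO, a difference of -0.34 ± 0.08 (adjusted p = 0.0019) with no overlap. ADAM19's brighter probe had 5.16, 4.95 and 4.90 with WP1130 and 5.58, 5.26 and 5.23 with DMSO, a difference of -0.36 ± 0.13 (adjusted p = 0.027). The ADAM19 call was lost without WP1130 replicate 2 (-0.33, adjusted p = 0.074), without WP1130 replicate 3 (-0.30, adjusted p = 0.093), without DMSO replicate 1 (-0.25, adjusted p = 0.14) and when the background was not corrected (-0.11, adjusted p = 0.086). These falls are to be read against a median change of -0.11 over all tested probes, relative to which ADAM9 was at -0.23 and ADAM19 at -0.25. With each array scaled to its median in place of quantile normalization, the median of all tested probes was -0.36, and ADAM9 and ADAM19 were at -0.59 and -0.06 relative to it. Their changes themselves were -0.94 and -0.42 under median scaling, and -1.13 and -0.61 with no scaling between arrays. The raw means of ADAM9 were 265 with WP1130 and 486 with DMSO, on arrays that were dimmer as a whole with WP1130.

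That shift of all probes touches the split of the WP1130 calls as well. Of all called probes 37.1% were higher with WP1130 under quantile normalization, 16.2% under median scaling and 10.1% with no scaling between arrays. The 7 rises and 2 falls of the protease probes kept their direction under all 3. The size of the rises depended on how the background was treated. MMP10 ranged from 4.58 with no background correction to 6.98 on the authors' processed values, and MMP1 from 0.92 to 3.69. The PLAUR probes ranged from 0.55 to 3.40 and ADAMTS1 from 0.88 with no scaling to 1.78 on the authors' values.

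**Figure D3:**
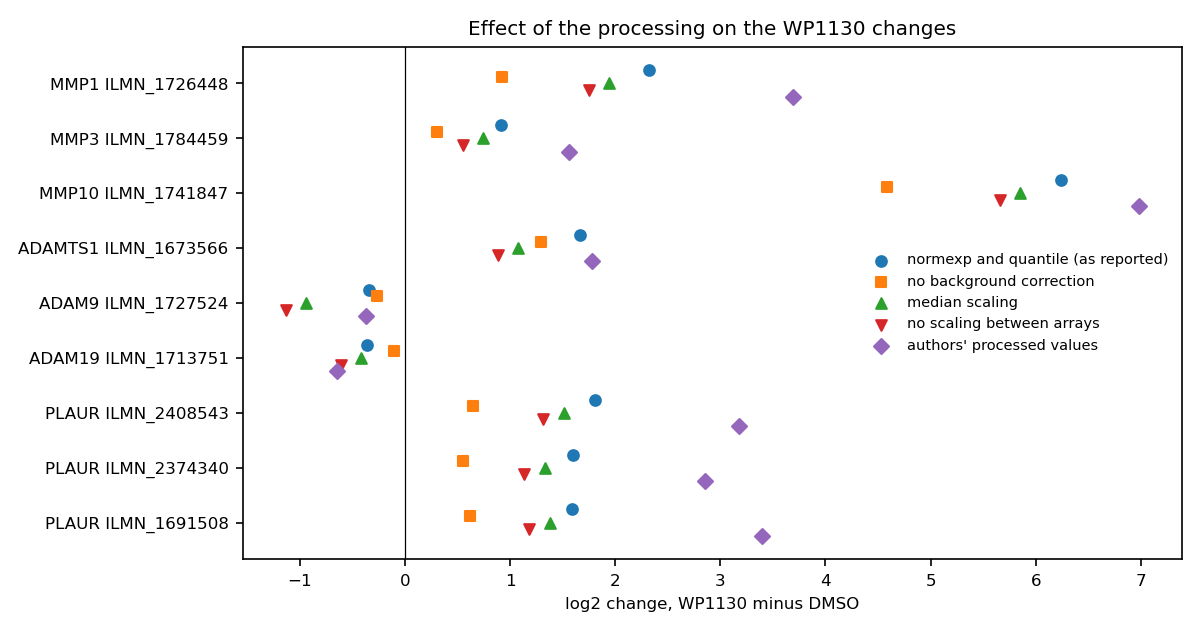
Log2 change, WP1130 minus DMSO (horizontal axis), of the 9 tested protease probes under 5 ways of processing, 1 symbol each. For the dim MMP1 and PLAUR probes the change is smallest with no background correction and largest on the authors' processed values, and every probe keeps its side of 0.

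Markers of other cell types were set beside these results. Among stromal markers, 5 of 10 (COL1A2, COL3A1, PDGFRB, PDGFRA, THY1) were detected on no array. LUM and VIM were detected on all 15 arrays, with WP1130 minus DMSO at -0.84 and -0.33. COL1A1, DCN and FAP, detected on some arrays, were at 0.14, 0.11 and 0.28. That list summed to raw intensities of 2021 to 2087 with WP1130 and 2621 to 2745 with DMSO. Of 8 leukocyte and macrophage markers, PTPRC, CD3E and ITGAM were detected on no array. CD68 and CD14 were detected on all arrays and were at 1.71 and 0.93 with WP1130 minus DMSO (log2). CSF1R was detected on all 3 WP1130 arrays and on no DMSO array, with a difference of 0.59. LYZ and CD79A, detected in both groups, were at -0.09 and 0.18. That list summed to 2490 to 2536 with WP1130 and 2317 to 2421 with DMSO. Of 5 endothelial markers 4 were detected on no array. VWF was detected on 12 arrays, with WP1130 minus DMSO at 0.63. The endothelial list summed to 518 to 542 with WP1130 and 541 to 552 with DMSO. The part of CD68, CD14, CSF1R, VWF and the overall dimming in the protease results was not tested.

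With the ERG siRNAs ADAMTS1 was the 1 gene of the 7 tested that passed the threshold, and it was higher with both siRNAs. MMP10 and ADAM9 came near the threshold and passed it in some alternatives, as given below. The threshold was passed by 1 of 9 tested probes with ERG siRNA 1, with ERG siRNA 2 and with their mean, against 8.2%, 12.2% and 13.7% of all tested probes. Nothing is read from the share of 1 of 9. The MMP1 and PLAUR probes were undetected on every siRNA array, and MMP3 was detected on only 1 array of each ERG siRNA. Such probes could hardly be called here. With no filter 1 of 14 was called for the mean, against 6.24% of all probes, and the median change of the 14 was -0.0037, against -0.00080 over all probes.

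ADAMTS1 had log2 levels of 8.57, 8.54 and 8.39 with ERG siRNA 1 and 8.69, 8.49 and 8.50 with ERG siRNA 2, against 6.66, 6.86 and 7.09 with the non-targeting siRNA. All 6 ERG siRNA arrays lay above all 3 non-targeting arrays. The difference was 1.63 ± 0.11 for ERG siRNA 1 (adjusted p = 1.62e-07) and 1.69 ± 0.11 for ERG siRNA 2 (adjusted p = 1.19e-07). The mean of both was 1.66 ± 0.09, or 3.17-fold with a 95% interval from 2.76 to 3.64 (adjusted p = 1.93e-08). It was the 10th highest rise among the 23281 tested probes in that comparison. The siRNAs did not differ detectably on ADAMTS1, with a difference of ERG siRNA 2 minus ERG siRNA 1 of 0.06 and a 95% interval from -0.17 to 0.29. In all 25 alternatives run, the ADAMTS1 rise with the mean of the ERG siRNAs stayed past the threshold, between 1.12 and 1.83.

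Ordered by level, ADAMTS1 averaged 9.32 ± 0.13 with WP1130, 8.56 ± 0.11 for ERG siRNA 2, 8.50 ± 0.09 for ERG siRNA 1, 7.65 ± 0.08 with DMSO and 6.87 ± 0.21 with the non-targeting siRNA (log2, SD, n = 3 each). In these normalised values the ERG siRNA groups overlapped each other, and no other neighbours in that order did. In raw intensities the WP1130 arrays (452 to 540) overlapped those of ERG siRNA 2 (453 to 599) and ERG siRNA 1 (472 to 524). The place of WP1130 at the top thus depends on the normalization of arrays that were dimmer as a whole. DMSO differed from the non-targeting siRNA by 0.79 ± 0.11 on ADAMTS1 (adjusted p = 1.2e-04), so the starting level differed between the controls. No other protease probe was called between DMSO and the non-targeting siRNA, 1 of 9 against 18.2% of all tested probes. The MMP1, MMP3 and PLAUR probes were undetected in both of these control groups, so nothing is read from that share.

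MMP10 and ADAM9 came next in the ERG siRNA comparison without passing the threshold. MMP10 had log2 levels of 5.69, 5.98 and 5.51 with ERG siRNA 1 and 5.59, 5.57 and 5.63 with ERG siRNA 2, against 5.28, 5.38 and 5.27 with the non-targeting siRNA. The groups did not overlap, and the mean difference was 0.35 ± 0.12 (adjusted p = 0.080). It passed without ERG siRNA 1 replicate 3 (0.40, adjusted p = 0.047) and without WP1130 replicate 1 (0.35, adjusted p = 0.031), an array that enters this comparison only through the shared variance. ADAM9 had 8.22, 7.96 and 7.96 with ERG siRNA 1 and 8.12, 8.13 and 8.09 with ERG siRNA 2, against 8.32, 8.27 and 8.25 with the non-targeting siRNA. Its mean difference was -0.20 ± 0.07 (adjusted p = 0.070), also without overlap, and it passed without ERG siRNA 1 replicate 1 (-0.24, adjusted p = 0.014). Each of these leave-outs moved the count of called probes for the mean to 2. For ERG siRNA 1 alone the count was also 2 without its replicate 1, where ADAM9 passed (-0.32, adjusted p = 0.017), and without WP1130 replicate 1, where MMP10 did (0.41, adjusted p = 0.039). Of all 47322 probes 9.92% had ERG siRNA and non-targeting groups that did not overlap.

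The remaining probes lay close to 0 with the ERG siRNAs. MMP1 differed by -0.01 (95% interval -0.34 to 0.31), MMP3 by 0.03 (-0.34 to 0.41) and ADAM19 by 0.0043 (-0.23 to 0.24). The PLAUR probes differed by -0.11, -0.04 and -0.05, and PLAU, PLAT and MMP7 were undetected on all 9 siRNA arrays. MMP1 and PLAUR were likewise undetected there, and MMP3 was detected on only 1 array of each ERG siRNA and on no non-targeting array. For these genes changes below the detection limit could not be seen. Between ERG siRNA 2 and ERG siRNA 1, limma called 0 of the 9 protease probes, with 0 also at an unadjusted p under 0.05, against 0.0472% of all tested probes.

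**Figure D4:**
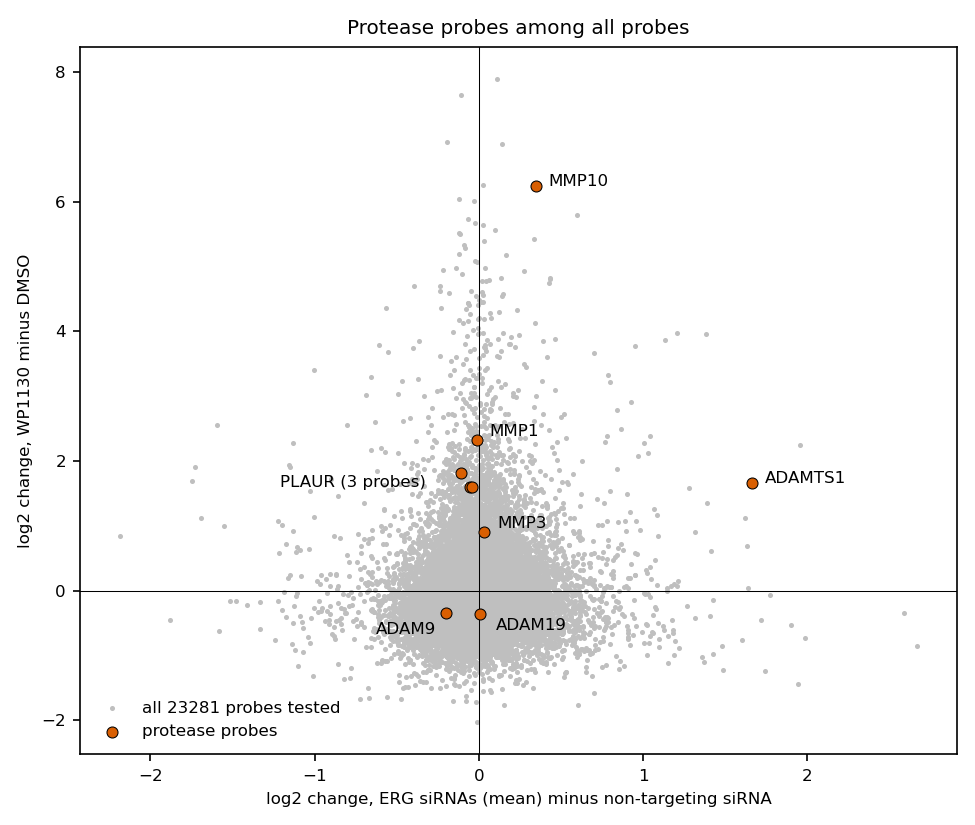
Log2 change with WP1130 (vertical axis) against log2 change with the ERG siRNAs (horizontal axis) for all 23281 tested probes in grey and the protease probes in orange. MMP10, MMP1 and PLAUR lie high near the vertical line, at 6.24, 2.33 and 1.59 to 1.81, and ADAMTS1 lies near 1.66 on both axes.

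The WP1130 effect and the mean ERG siRNA effect were compared directly, as the difference of their log2 changes, which share no control arrays. The WP1130 effect was larger for MMP10, MMP1, MMP3 and PLAUR, 6 of 9 probes, against 16.9% of all tested probes with a larger WP1130 effect. Nothing is read from that count, since the MMP1 and PLAUR probes passed the filter through the WP1130 arrays alone. With no filter it was larger for 8 of the 14 protease probes, against 8.54% of all probes. That share is no test of the set either, since the members were chosen with earlier results of these data known. The difference was 5.89 ± 0.19 for MMP10 (adjusted p = 1.75e-12) and 2.34 ± 0.23 for MMP1 (adjusted p = 1.10e-06). MMP1 was undetected on every array without WP1130. Its difference is therefore a fitted value that rests on background levels, and its p-value gives no separate support. For ADAMTS1 the difference was -0.00092 ± 0.14, with a 95% interval from -0.31 to 0.30 (adjusted p = 0.997). That near-equality held under quantile normalization. Under median scaling the ADAMTS1 difference was -0.65 (adjusted p = 0.0028), and with no scaling between arrays -0.81 (adjusted p = 4.3e-04), with the WP1130 effect the smaller.

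The rest of the extracellular protease system was described from a list of 113 further genes, of which 108 were on the array and 63 were measured, each by its brightest probe. With WP1130, 19 of the 63 rose and 13 fell, against 21.9% and 37.1% of all 12744 genes. A gene detected on the WP1130 arrays alone, as MMP12 was, counts as measured through the group in which it is high. The same filter was applied to all 12744 genes. Under median scaling the split of this protease list was 11 higher and 26 lower, and with no scaling between arrays 10 higher and 39 lower, so the balance of rises and falls depends on the scaling. Inhibitors gave 4 rises and 2 falls among 10 measured. SERPINE2 (protease nexin-1, an inhibitor of thrombin, urokinase and plasmin) averaged 10.25 ± 0.25 with WP1130 and 6.58 ± 0.01 with DMSO, a rise of 3.67 (adjusted p = 6.11e-13). TIMP1, a secreted inhibitor of MMPs, averaged 7.11 ± 0.19 with WP1130 and 5.33 ± 0.18 with DMSO, a rise of 1.78 (adjusted p = 6.46e-06). TIMP2 was higher by 0.44 (adjusted p = 8.5e-04), but was at -0.14 under median scaling and at -0.33 with no scaling. TIMP3 was not past the filter.

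Among 12 measured genes of the plasmin and coagulation systems and their receptors, 4 rose and 5 fell with WP1130. This and the role counts below stand beside 21.9% and 37.1% of all genes, and nothing is read from groups this small. ANXA2 (annexin A2, a surface binder of plasminogen and its activator) averaged 12.39 ± 0.17 with WP1130 and 9.48 ± 0.11 with DMSO, a rise of 2.91 (adjusted p = 9.81e-13), and its other probes were at 1.10 to 4.12. TFPI, the tissue factor pathway inhibitor, rose by 1.67 (adjusted p = 1.27e-09). ENO1, a glycolytic enzyme that also binds plasminogen at the surface, fell by 0.42 (adjusted p = 1.5e-04), and BSG (basigin, an inducer of MMPs) differed by -0.34 (adjusted p = 9.4e-04). Of 9 other MMPs 3 rose and 1 fell, and MMP11 (stromelysin-3) was the one that fell, by 0.74 (adjusted p = 5.6e-04). MMP9 (gelatinase B), named after its values were seen, was at least 2.09-fold higher with WP1130. Of 7 other ADAMs 2 rose and 2 fell. ADAM10, a major sheddase, fell by 0.68 (adjusted p = 2.6e-05), with its other probe at -0.46. Of 10 other ADAMTS genes 1 rose and 0 fell, of 8 serine proteases 2 rose and 2 fell, and of 7 cathepsins 3 rose and 1 fell. TMPRSS2, a membrane serine protease, fell by 0.42 (adjusted p = 6.2e-04), and HPN (hepsin) differed by -0.20 (adjusted p = 0.12), or by -0.29 (adjusted p = 0.029) without WP1130 replicate 1.

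With the mean of the ERG siRNAs, 8 of the 63 genes rose and 7 fell, against 10.7% and 9.58% of all genes. With no scaling between arrays the split was 7 higher and 4 lower. TMPRSS2 rose most, by 1.32 (adjusted p = 1.03e-08), with 12.27 ± 0.12 in ERG siRNA 1 and 12.43 ± 0.06 in ERG siRNA 2, against 11.03 ± 0.11 with the non-targeting siRNA. ANXA2 rose by 0.92 (adjusted p = 1.56e-06) with its other probes at 0.31 to 0.34. The inhibitors SERPINI1 (neuroserpin, which acts on PLAT) and SERPINE2 rose by 0.78 and 0.70 (adjusted p = 2.71e-05 and 1.7e-04), and the second SERPINI1 probe was at 0.34. VLDLR, a receptor that takes up complexes of proteases with serpins, fell by 1.20 (adjusted p = 1.37e-07). PRSS23, a secreted serine protease, fell by 0.82 (adjusted p = 1.15e-06), and F3 (tissue factor) by 0.81 (adjusted p = 5.1e-04). ADAMTS3, a procollagen-processing enzyme, fell by 0.52 (adjusted p = 0.0080), a call lost without non-targeting replicate 3 (-0.40, adjusted p = 0.061). TIMP1, TIMP2, BSG and HPN did not pass the threshold, at -0.17, 0.11, 0.07 and -0.14. Of 9 other MMPs 2 rose, and of 7 cathepsins none passed (0 also at an unadjusted p under 0.05).

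**Figure D5:**
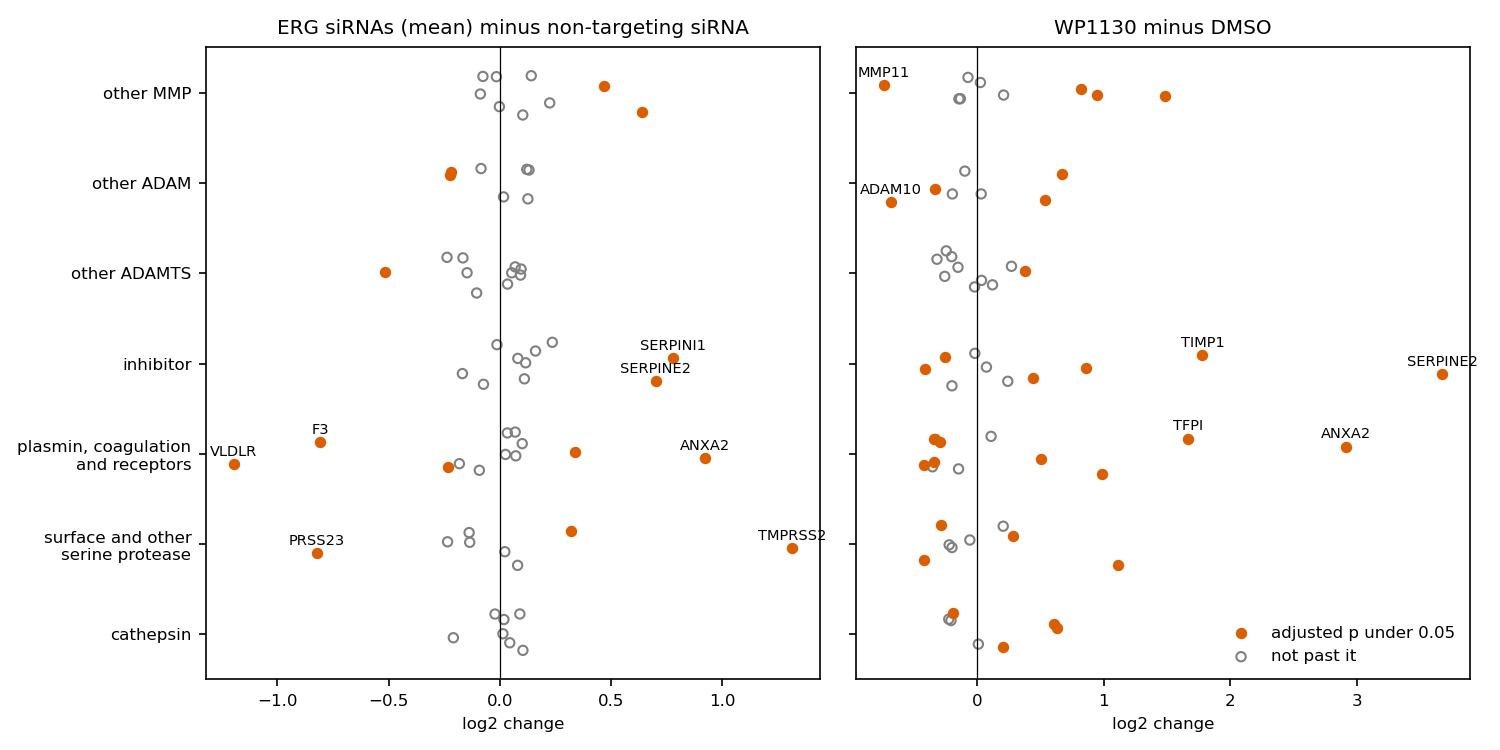
Log2 change (horizontal axis, different ranges in the panels) of the 63 measured genes of the wider protease system by role, ERG siRNAs on the left and WP1130 on the right; orange points are past an adjusted p of 0.05. SERPINE2 and ANXA2 lie furthest right with WP1130, at 3.67 and 2.91, and TMPRSS2 with the ERG siRNAs, at 1.32.

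For the 3 protease probes that varied most over the groups, the genes with the most similar pattern were found by Pearson correlation of log2 intensity over the 15 arrays, among 12225 named probes detected on all of them. These values describe patterns over arrays that share the same groups. MMP10 was most like KLF2 (0.998), ZFAND2A (0.998) and ERRFI1 (0.997). PLAUR (ILMN_2408543) was most like PPP1R15A (0.996), MSX1 (0.994) and MYLIP (0.994). ADAMTS1 was most like TLE4 (0.968), RIPK2 (0.960) and GSTT2B (0.956), and the TLE4 levels averaged 6.30 and 6.53 with ERG siRNAs 1 and 2 against 5.13 with the non-targeting siRNA, and 7.39 with WP1130 against 5.82 with DMSO.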

How the data were processed

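The deposited non-normalized table holds, per the file headers, a linear intensity and a detection p-value for each probe and array. Per the labels' protocols, biotin-labelled cRNA was prepared from kit-purified total RNA. The submitters' processing notes name GenomeStudio, with no version. The second deposited table, the authors' processed intensity values, served as an alternative, with a normalization that the sources used here do not state. The neqc function (limma 3.58.1, R 4.3.3) corrected the background by normexp with an offset of 16, quantile normalised the arrays and took log2. A 5-group model over 23281 probes was moderated with eBayes, with Benjamini-Hochberg adjustment over all tested probes, 10 residual degrees of freedom and intervals at 95%. The number of arrays limits the precision. For the wider list 1 probe a gene was used, the brightest, over 12744 genes. Its named genes are the 4 largest rises and falls past the threshold in the ERG siRNA and WP1130 comparisons and a listed set of inhibitors and surface proteins. The members and lists were chosen with earlier results of these data known. The model was tested on simulated data. Slide positions were not analysed here, so no slide block was fitted. Of 30 same-number pairs of arrays 2 had deviations correlated above 0.1, within -0.04 to 0.13, both between ERG siRNA 1 and ERG siRNA 2. Pairs with different numbers were not compared, so this does not settle whether replicate numbers pair the arrays. Exact permutation of 3 against 3 arrays cannot go below p = 0.1 and was not used.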

Additional observations from a re-analysis of the deposited data

Results flagged for a closer look

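Differences between the WP1130 effect and the mean ERG siRNA effect, tested in the same limma model, were past the threshold for 6 of 9 tested protease probes. Of all tested probes 16.9% had a larger WP1130 effect. Nothing is read from the count of 6, since the MMP1 and PLAUR probes passed the filter through the WP1130 arrays alone. The differences were 5.89 for MMP10 (adjusted p = 1.75e-12), 2.34 for MMP1 (adjusted p = 1.10e-06) and 0.88 for MMP3 (adjusted p = 0.015). For the PLAUR probes they were 1.92 (ILMN_2408543, adjusted p = 3.11e-09), 1.64 (ILMN_2374340, adjusted p = 2.84e-08) and 1.65 (ILMN_1691508, adjusted p = 2.62e-06). All are in log2 units and positive where WP1130 had the larger effect. MMP1 and the PLAUR probes were undetected on every array without WP1130. Their differences are therefore fitted values that rest on background levels, and their p-values give no separate support. The rises of these probes with WP1130 are known only as the lower bounds given above. The agents, the times and the controls differ between these arms and cannot be told apart.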

How the results depend on the processing

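The counts of called protease probes moved by over 1.5 times in few settings. With ERG siRNA 1 the count of 1 became 2 with no background correction and with trend and robust moderation. With the mean of the ERG siRNAs it became 2 with no background correction, with the stricter filter, with only the compared groups and with 1 probe a gene, and 3 with trend and robust moderation, through MMP10 (adjusted p from 0.029) or ADAM9 (from 0.023). Between DMSO and the non-targeting siRNA it became 2 with no background correction. In the wider list a minimum change of 1.5-fold left 6 of 12 genes for ERG siRNA 1, 8 of 15 for the mean, 15 of 32 for WP1130, 19 of 30 for the difference of effects and 6 of 23 for the controls, and with no scaling WP1130 gave 49 (10 up, 39 down). TIMP2 with WP1130 reversed to -0.14 (adjusted p = 0.31) under median scaling and to -0.33 (adjusted p = 0.027) with no scaling. Leaving out each array gave 1 to 2 protease probes for ERG siRNA 1 and for the mean, 1 for ERG siRNA 2, 8 to 9 for WP1130, 6 to 7 for the difference of effects, 1 to 2 for the controls and 0 between the siRNAs. The wider counts were then 9 to 13, 9 to 14 (ERG siRNA 2), 11 to 16 (mean), 27 to 37 (WP1130), 27 to 31 (difference) and 17 to 25 (controls). DMSO against the non-targeting siRNA reached 2 without non-targeting replicate 1, where ADAM19 passed (-0.41, adjusted p = 0.035). With the replicate number as a block the protease counts were 1, 1, 1, 9, 0, 6 and 1, equal to those without it, and the wider counts were 11, 13, 15, 33, 0, 30 and 24. With the mean of the ERG siRNAs 52.9% of all called probes were higher, 69.4% under median scaling and 62.2% with no scaling. Of 364 alternative counts 344 stayed within 1.5 times, and of 2136 alternative values of single probes 2103 kept their direction and side of the threshold or moved within the replicate spread. Signal over background limits MMP1, MMP3, PLAUR, PLAU, PLAT and MMP7. It also limits ADAM19, which was near the detection limit with WP1130, and the size of the MMP10 rise, since MMP10 was dim with DMSO. The causes of these shifts were not tested.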
